A study of Mus musculus with 12 samples.

Results

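The 40 genes described here encode proteins that repair DNA by homologous recombination, the Fanconi anaemia pathway, mismatch repair and base excision repair. They were chosen by name, with earlier results of these data known, from the deposited table of 36254 mouse genes. Each name matched 1 row, and all 40 genes passed the filter on low counts that left 23191 genes for testing. RNA was sequenced from 12 mouse samples, 3 in each of 4 groups. Taurine and Proline are orthotopic lung tumours, that is tumours grown in the lung itself, given the amino acid in their name. Model is the tumour for which the labels name no amino acid, and Control is normal lung according to the series' description, although the tissue label of every sample reads lung tumour. The sample titles give C57 mice for all 12. The sources used here do not give the tumour cells, doses or ages, nor whether the libraries of a group come from separate animals. The p-values therefore measure only the spread between these libraries. Levels are given as FPKM, fragment counts divided by gene length and by library size, as the authors deposited them, and the numbering of libraries within a group follows the sample names.

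Homologous recombination copies an intact sister strand to mend a double-strand break, and works mainly in cells that have replicated their DNA. The Fanconi pathway uncouples crosslinked strands: a core complex of Fanconi proteins attaches ubiquitin to the paired clamp proteins FANCD2 and FANCI, and recombination proteins, BRCA1 and BRCA2 among them, finish the repair. Mismatch repair corrects copying errors behind the replication fork, and base excision repair removes single damaged bases and seals the nick.

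In Model against Control, 32 of the 40 genes were higher in Model, 1 was lower and 7 did not pass (adjusted p threshold 0.05, edgeR's quasi-likelihood test with Benjamini-Hochberg adjustment over 23191 genes). The median log2 fold change of the 40 genes was 1.71, against −0.03 over all genes tested, and the values ran from −1.87 for Fancc to 4.49 for Exo1. Of all genes tested, 58.1% passed in this comparison, 28.8% higher and 29.3% lower in Model. The median level of the 40 genes was 2.09, 1.97 and 1.96 FPKM in the 3 Model libraries, against 0.858, 0.678 and 0.852 FPKM in the Control libraries. In treated tumours the medians were 2.33, 2.17 and 2.01 FPKM in Taurine and 2.12, 2.21 and 2.22 FPKM in Proline. No gene of the 40 passed in any comparison among tumours by this test.

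**Figure D1:**
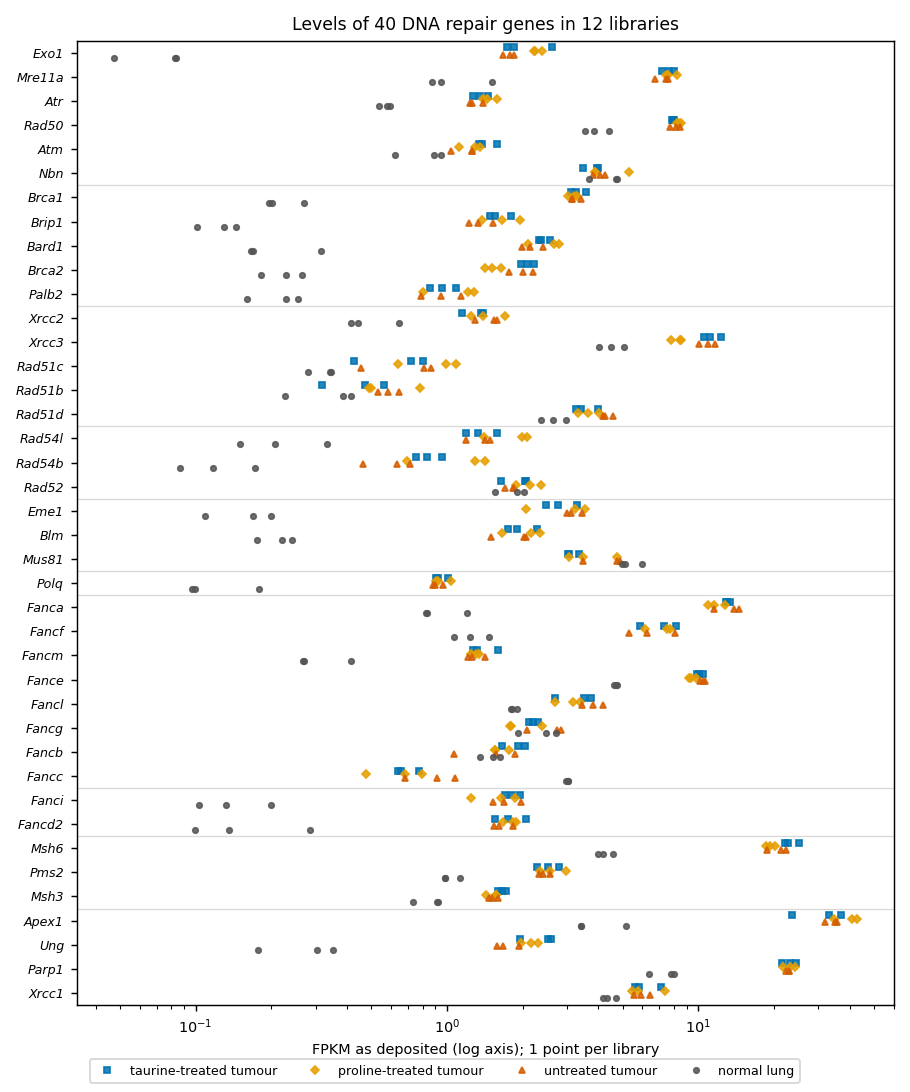
FPKM as deposited (log axis) of the 40 DNA repair genes, 1 point per library, in taurine-treated, proline-treated and untreated tumours and in normal lung, with lines between functional groups. The tumour points of Exo1 lie between 1.67 and 2.62 FPKM and its normal lung points between 0.0473 and 0.0832 FPKM, while the untreated tumour and normal lung points of Nbn, Rad52, Fancb and Fancg overlap.

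The libraries held 56542745 to 69456490 counts. All 20 genes of a proliferation list were higher in Model than in Control, with a median log2 fold change of 3.69. Their summed level was 389.5 to 495.8 FPKM in Taurine, 465.0 to 481.4 FPKM in Proline, 400.8 to 458.3 FPKM in Model and 50.6 to 63.1 FPKM in Control. The part of proliferation in the repair gene results was not tested. Cell types moved as well: all 6 alveolar type 2 markers were lower in Model, with summed levels of 5.0 to 8.47 FPKM in Model and 12300 to 14290 FPKM in Control, and 4 of 5 macrophage markers were higher, at 535.3 to 589.6 FPKM in Model and 76.1 to 121.1 FPKM in Control. All 8 immediate early genes, which respond to handling of tissue, were lower in Model than in Control, with summed levels of 82.2 to 100.4 FPKM in Taurine, 116.6 to 134.9 FPKM in Proline, 79.4 to 95.9 FPKM in Model and 643.4 to 720.6 FPKM in Control. None of them passed in Proline against Model in edgeR, where 7 of the 8 had an unadjusted p under 0.05, and the part of handling in the repair gene results was not tested. In such bulk samples, fewer cells of a type and less RNA per cell cannot be told apart. Some tumour libraries also held transcripts of other tissues. The summed liver genes reached 71.95 and 89.75 FPKM in Model 1 and 2, the kidney genes 35.88 to 40.43 FPKM in Taurine 1, Taurine 2 and Model 3, and the skeletal muscle genes 1033 FPKM in Taurine 3, 368.9 and 235.7 FPKM in Proline 2 and 3 and 201.9 FPKM in Model 1. The alveolar type 2 markers summed to 345.9 FPKM in Proline 1 and to 4.80 to 25.3 FPKM in the other tumour libraries. The calls that changed without these libraries are given with the genes concerned.

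E2F factors, which activate S-phase genes, bind sites of the type TTTCCCGC, TTTCGCGC, TTTGCCGC and TTTGGCGC, and many recombination genes are known targets. These 4 motifs were searched on both strands of RefSeq promoter windows (build GRCm38.p6) reaching from 250 bases before a gene's start to 50 bases from the start on. Windows were found for 33 of the 40 genes, and 6 of them (18.2%) held at least 1 motif, namely Bard1, Brca2, Fancg, Msh3, Msh6 and Rad51c. Of 27025 genes with a window, 704 (2.6%) held one. In Msh6 and Rad51c the matches reached or passed the start. Of the 4 genes with a match before the start, Bard1, Brca2 and Msh3 are shown as genes higher in Model. Fancg did not pass, and its window was added for comparison after its values were seen. Capitals mark the motif, or its reverse complement, as read on the gene's strand. In Msh3 the matches on both strands overlap by 4 bases.
Bard1 (chr1:71103122-71103221, minus strand): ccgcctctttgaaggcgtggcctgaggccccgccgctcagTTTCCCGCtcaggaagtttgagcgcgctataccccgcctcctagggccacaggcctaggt
Brca2 (chr5:150522413-150522512, plus strand): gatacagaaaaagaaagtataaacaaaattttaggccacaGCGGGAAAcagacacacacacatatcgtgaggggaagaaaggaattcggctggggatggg
Msh3 (chr13:92355146-92355245, minus strand): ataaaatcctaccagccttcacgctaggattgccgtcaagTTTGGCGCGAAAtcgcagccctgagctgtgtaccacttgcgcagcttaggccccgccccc
Fancg (chr4:43010302-43010401, minus strand): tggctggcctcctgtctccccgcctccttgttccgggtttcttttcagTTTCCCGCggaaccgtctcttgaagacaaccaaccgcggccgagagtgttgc
The matches began 209 bases before the start in Bard1, 168 in Brca2, 202 and 198 in Msh3, and 52 in Fancg. The CHR-type motifs TTTGAA and TTCGAA, a mark of G2 and mitosis genes, were in 18.2% of the repair windows and 21.7% of all genes. The motif CCAAT was in 57.6% of the repair windows and 41.1% of all genes. A match describes these letters and is not a measured binding site. The windows of Eme1, Brca1, Fanca, Fanci and Brip1, which rose more than Bard1, held no E2F-type motif, and Exo1 had no window. Whether the motif goes with the rise was not tested.

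The first step of recombination is carried out by break sensors and nucleases, and 4 of these 6 genes were higher in Model. Exo1, a nuclease that resects DNA ends and also acts in mismatch repair, had 1.85, 1.67 and 1.78 FPKM in Model, against 0.0473, 0.0832 and 0.0824 FPKM in Control. The groups were far apart, and the log2 fold change of 4.49 (adjusted p = 2.88e-08, SE 0.22, edgeR) was the largest of the 40 genes, with 33, 57 and 56 counts behind the Control values. Exo1 overlaps 1 gene on the same strand. The MRN complex holds broken ends and starts resection, and its 3 subunits differed. Its nuclease Mre11a had 7.60, 6.70 and 7.44 FPKM in Model, against 1.51, 0.947 and 0.872 FPKM in Control, a log2 fold change of 2.59 (SE 0.19). Rad50, the subunit that bridges the ends, had 7.73, 8.50 and 8.15 FPKM in Model, against 3.55, 3.85 and 4.43 FPKM in Control, a log2 fold change of 0.93 (SE 0.08). Nbn, the third subunit, which recruits the kinase ATM, had 4.08, 4.27 and 3.83 FPKM in Model, against 4.71, 4.75 and 3.69 FPKM in Control. The Nbn values of both groups overlapped, and it did not pass (log2 fold change −0.23, 95% interval −0.57 to 0.11, adjusted p = 0.225).

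The damage kinases sit above this step. Atr, which responds to single-stranded DNA at stalled forks, had 1.24, 1.39 and 1.26 FPKM in Model, against 0.596, 0.576 and 0.536 FPKM in Control, a log2 fold change of 1.06 (adjusted p = 1.86e-06, SE 0.09, edgeR). Atm, the kinase for double-strand breaks, had 1.26, 1.26 and 1.03 FPKM in Model, against 0.889, 0.621 and 0.943 FPKM in Control. The Atm values did not overlap between groups, but the log2 fold change of 0.42 (adjusted p = 0.0543, SE 0.17, edgeR) missed the threshold. Atm passed with limma on log2(FPKM + 1) at an adjusted p of 0.0315, on log2(FPKM + 0.1) at 0.0363 and with upper-quartile scaling at 0.0483, and over the libraries left out singly its adjusted p ran from 0.0387 without Control 3 to 0.179.

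All 5 genes of the BRCA complexes were higher in Model, with a median log2 fold change of 3.21. Brca1, a ubiquitin ligase subunit that promotes end resection, had 3.42, 3.16 and 3.14 FPKM in Model, against 0.202, 0.269 and 0.196 FPKM in Control, a log2 fold change of 3.74 (adjusted p = 2.55e-09, SE 0.13, edgeR). This was the smallest adjusted p of the 40 genes. Bard1, its obligate partner, had 2.15, 1.99 and 2.41 FPKM in Model, against 0.167, 0.316 and 0.169 FPKM in Control, a log2 fold change of 3.21 (SE 0.25). Brip1, a helicase that binds BRCA1, had a log2 fold change of 3.31 (SE 0.19). Brca2, which loads the recombinase onto single-stranded DNA, had 2.20, 2.01 and 1.77 FPKM in Model, against 0.181, 0.265 and 0.229 FPKM in Control, a log2 fold change of 3.02 (adjusted p = 1.74e-08, SE 0.14). Palb2, which joins BRCA1 to BRCA2, showed the smallest rise of the 5, at 0.960 ± 0.175 FPKM in Model and 0.215 ± 0.0492 FPKM in Control (SD, n = 3 each), a log2 fold change of 2.03 (SE 0.24).

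The 5 paralogs of the recombinase, which assist its filament, moved less, with a median log2 fold change of 1.01. Of these, 4 were higher in Model. Xrcc3, the paralog with the most RNA, had 10.9, 11.6 and 10.1 FPKM in Model, against 4.01, 4.49 and 5.09 FPKM in Control, a log2 fold change of 1.15 (adjusted p = 2.11e-06, SE 0.10, edgeR). Xrcc2 averaged 1.47 ± 0.154 FPKM in Model and 0.501 ± 0.127 FPKM in Control (SD, n = 3 each; log2 fold change 1.44). Rad51d averaged 4.34 ± 0.221 FPKM in Model and 2.66 ± 0.310 FPKM in Control (SD, n = 3 each; log2 fold change 0.59). Rad51c had 0.807, 0.865 and 0.453 FPKM in Model, against 0.280, 0.342 and 0.347 FPKM in Control, and Model 3 stood close to Control. Its log2 fold change of 1.01 (SE 0.33) passed at an adjusted p of 0.0208 in edgeR's test. Over the libraries left out singly that p ran from 0.00994 to 0.0741, and it was over the threshold without Control 1 (0.0668), Model 1 (0.064) and Model 2 (0.0741). Without both Model libraries that held liver transcripts, 1 Model library remained, the low Model 3, and it was assumed to vary like the other groups. The log2 fold change of Rad51c was then 0.41, with an adjusted p of 0.499. Rad51b had 0.582, 0.532 and 0.646 FPKM in Model, against 0.417, 0.387 and 0.226 FPKM in Control, and did not pass (log2 fold change 0.65, 95% interval −0.09 to 1.40, adjusted p = 0.122, edgeR), although it did with limma on log2(FPKM + 1), at an adjusted p of 0.0415.

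The strand exchange motors and the annealing factor parted ways. Rad54l, a motor protein that drives strand exchange, had 1.48, 1.42 and 1.19 FPKM in Model, against 0.207, 0.332 and 0.15 FPKM in Control, a log2 fold change of 2.44 (adjusted p = 1.5e-05, SE 0.27, edgeR). Its relative Rad54b had 0.465, 0.711 and 0.631 FPKM in Model, against 0.117, 0.0866 and 0.172 FPKM in Control, a log2 fold change of 2.14 (SE 0.33). The Rad54b locus overlaps Fsbp on the same strand, so the reads of this pair cannot be told apart. Rad52, which anneals complementary strands, had 1.70, 1.84 and 1.85 FPKM in Model, against 1.90, 2.02 and 1.56 FPKM in Control, with overlapping groups (log2 fold change −0.14, 95% interval −0.47 to 0.19, adjusted p = 0.441).

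Of the genes that resolve joined DNA molecules, Blm and Eme1 were higher in Model and Mus81 did not pass. Eme1 had 3.11, 3.44 and 3.01 FPKM in Model, against 0.200, 0.169 and 0.109 FPKM in Control, with 44, 38 and 25 counts behind the Control values. Its log2 fold change of 4.17 (adjusted p = 2.81e-07, SE 0.28, edgeR) was second to that of Exo1. Eme1 overlaps Lrrc59 and Mrpl27, both on the other strand. EME1 is the regulatory subunit of the MUS81 nuclease, and Mus81 itself had 3.47, 4.90 and 4.75 FPKM in Model, against 5.12, 5.97 and 4.95 FPKM in Control. All 3 Model values of Mus81 lay under the lowest Control value, by little in Model 2, and its log2 fold change was −0.41 (adjusted p = 0.073, SE 0.18). Mus81 was called lower by DESeq2 (adjusted p = 0.0266) and with median-ratio scaling (0.0367), and over the libraries left out singly its adjusted p ran from 0.0429 without Proline 3 to 0.252. Blm, the helicase that dissolves double Holliday junctions, had 2.03, 1.49 and 2.06 FPKM in Model, against 0.175, 0.243 and 0.222 FPKM in Control, a log2 fold change of 2.99 (SE 0.21). Polq encodes polymerase theta, which joins ends by short matching sequences when recombination fails, and had 0.896, 0.961 and 0.882 FPKM in Model, against 0.0964, 0.0998 and 0.178 FPKM in Control, a log2 fold change of 2.75 (adjusted p = 1.33e-06, SE 0.23).

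Of the 8 genes of the Fanconi core complex and its anchor, 5 were higher in Model, 1 was lower and 2 did not pass. Fanca, a scaffold subunit, had 13.8, 14.5 and 11.5 FPKM in Model, against 0.827, 1.2 and 0.831 FPKM in Control, a log2 fold change of 3.68 (adjusted p = 4.94e-09, SE 0.14, edgeR). Fanca overlaps Zfp276 on the other strand. Fancf, an adaptor subunit, averaged 6.56 ± 1.40 FPKM in Model and 1.26 ± 0.201 FPKM in Control (log2 fold change 2.27), and Fancm, the translocase that anchors the complex to DNA, 1.30 ± 0.107 and 0.317 ± 0.0841 FPKM in Model and Control (log2 fold change 1.91). Fance, which contacts the clamp, averaged 10.4 ± 0.270 FPKM in Model and 4.70 ± 0.0680 FPKM in Control (log2 fold change 1.02). Fancl, the ubiquitin ligase subunit, averaged 3.81 ± 0.363 FPKM in Model and 1.84 ± 0.0629 FPKM in Control (SD, n = 3 each; log2 fold change 0.93).

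Fancc was the 1 gene of the 40 that was lower in Model. It had 0.681, 1.08 and 0.910 FPKM in Model, against 2.98, 3.02 and 3.05 FPKM in Control, a log2 fold change of −1.87 (adjusted p = 1.51e-05, SE 0.21, edgeR). Treated tumours were low too, with 0.778, 0.638 and 0.654 FPKM in Taurine and 0.683, 0.475 and 0.798 FPKM in Proline, so no tumour library reached the Control range. FANCC is an adaptor that joins FANCE to the rest of the core complex. The Fancc locus overlaps 1 gene on its own strand and 5 on the other, the protein-coding gene Aopep among its neighbours, so its counts carry the uncertainty of shared reads. Fancg, a scaffold subunit beside FANCA, had 2.74, 2.85 and 2.09 FPKM in Model, against 1.93, 2.47 and 2.72 FPKM in Control (log2 fold change −0.01, 95% interval −0.38 to 0.36, adjusted p = 0.967). Fancb, a partner of the ligase subunit, had 1.07, 1.57 and 1.86 FPKM in Model, against 1.35, 1.53 and 1.63 FPKM in Control (log2 fold change −0.11, 95% interval −0.59 to 0.37, adjusted p = 0.689). The groups overlapped for both genes. The sign of Fancg changed with the tool, the scaling and the filter, and that of Fancb when libraries were left out, Model 1 among them.

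Both clamp genes, the targets of the core complex, were higher in Model. Fancd2 had 1.83, 1.62 and 1.54 FPKM in Model, against 0.285, 0.0991 and 0.136 FPKM in Control, a log2 fold change of 3.13 (adjusted p = 1.11e-05, SE 0.34, edgeR). Fanci had 1.68, 1.96 and 1.53 FPKM in Model, against 0.103, 0.132 and 0.199 FPKM in Control, a log2 fold change of 3.43 (adjusted p = 4.23e-07, SE 0.24). Fanci overlaps the polymerase gene Polg, and Fancd2 overlaps Fancd2os, each on the other strand.

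The 3 mismatch repair genes were all higher in Model, by different amounts. Msh6, which recognises single mismatches, had 22.3, 18.7 and 21.3 FPKM in Model, against 4.19, 3.98 and 4.60 FPKM in Control, a log2 fold change of 2.17 (adjusted p = 9.49e-09, SE 0.09, edgeR). Msh3, which recognises small loops and competes with MSH6 for the same partner, had 1.51, 1.60 and 1.47 FPKM in Model, against 0.911, 0.735 and 0.918 FPKM in Control, a log2 fold change of 0.71 (adjusted p = 0.00015, SE 0.11). Pms2, a subunit of the nuclease that nicks the new strand, averaged 2.44 ± 0.124 FPKM in Model and 1.03 ± 0.0858 FPKM in Control (SD, n = 3 each; log2 fold change 1.12).

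The 4 genes of base excision and single-strand break repair were higher in Model, with a median log2 fold change of 2.01. Ung, the glycosylase that removes uracil from DNA, had 1.68, 1.93 and 1.58 FPKM in Model, against 0.178, 0.305 and 0.353 FPKM in Control, a log2 fold change of 2.50 (SE 0.23). Apex1, which cuts the strand at the emptied site, had the highest level of the 40 genes in tumours, with 34.9, 31.8 and 35.7 FPKM in Model, against 3.43, 5.17 and 3.41 FPKM in Control, a log2 fold change of 2.97 (adjusted p = 2.78e-07, SE 0.20, edgeR). Parp1, which marks nicks with ADP-ribose, had 23.0, 22.4 and 23.1 FPKM in Model, against 6.36, 7.99 and 7.81 FPKM in Control, a log2 fold change of 1.51 (SE 0.08). Parp1 had the highest level of the 40 genes in every Control library. Xrcc1, the scaffold for nick sealing, had 5.93, 6.43 and 5.56 FPKM in Model, against 4.19, 4.32 and 4.69 FPKM in Control, the smallest of the passing changes (log2 fold change 0.32, SE 0.11, adjusted p = 0.0307). Xrcc1 did not pass with DESeq2 (adjusted p = 0.0735) or median-ratio scaling (0.0962), nor without Control 1 (0.0833), Control 2 (0.086), Model 1 (0.057) or Model 2 (0.0962). It also did not pass without the libraries with kidney transcripts (0.0538), nor with Model 3 as the only Model library, the one without liver transcripts, set at the spread of the other groups (0.301).

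**Figure D2:**
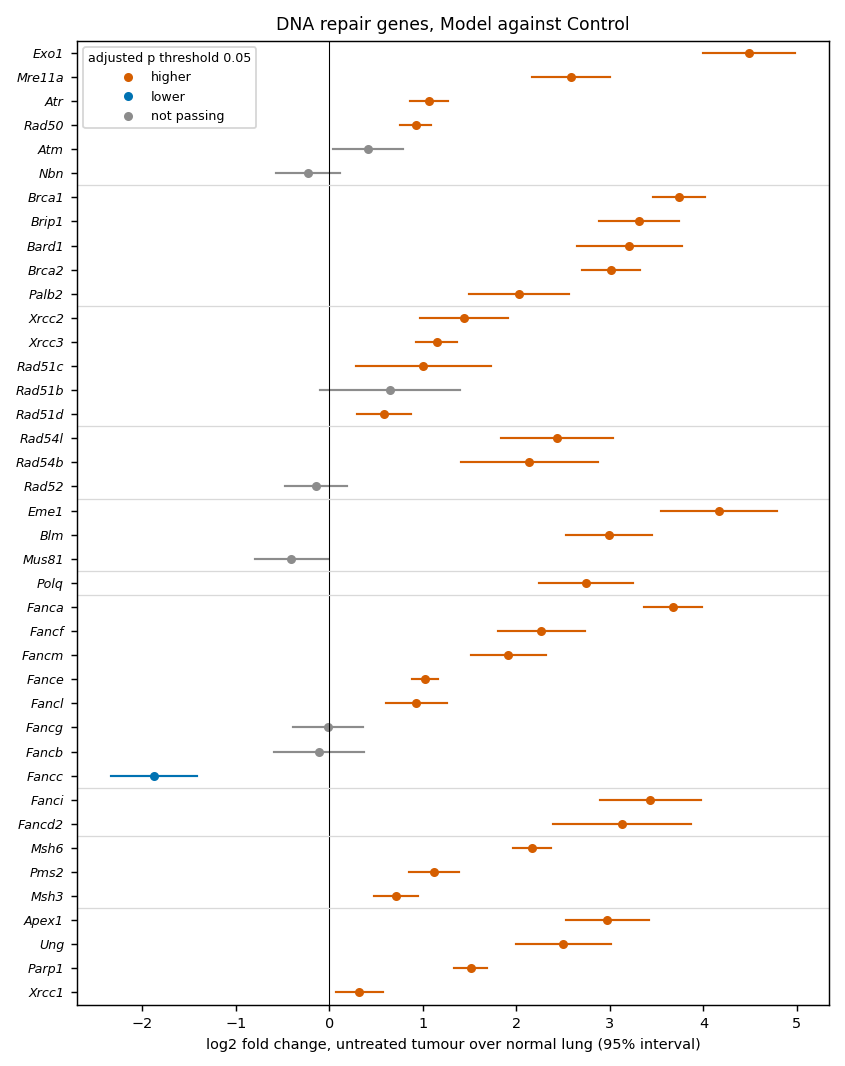
Log2 fold change (untreated tumour over normal lung) of the 40 genes with 95% intervals from edgeR, grouped by role and coloured by call at an adjusted p of 0.05. Exo1 at 4.49 and Eme1 at 4.17 lie farthest to the right, Fancc at −1.87 is the 1 gene called lower, and the intervals of Nbn, Rad52, Rad51b, Fancg and Fancb cross 0.

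Genes whose proteins work as 1 unit did not always move by the same amount, and the ratio of their FPKM values within a library shows this without any scaling between libraries. The 8 ratios were chosen after the values were seen and were not tested. Eme1 over Mus81 was 0.633 to 0.898 in Model and 0.0220 to 0.0391 in Control. Fanca over Fancg was 5.05 to 5.52 in Model and 0.305 to 0.485 in Control. Within the MRN complex, Mre11a over Nbn was 1.57 to 1.94 in Model and 0.199 to 0.321 in Control, and Rad50 over Nbn was 1.89 to 2.13 in Model and 0.754 to 1.2 in Control. Msh6 over Msh3 was 11.7 to 14.8 in Model and 4.60 to 5.41 in Control.

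Of the other pairs, only Fanci over Fancd2 overlapped between Model and Control. Brca1 over Bard1 was 1.31 to 1.59 in Model and 0.851 to 1.21 in Control. Fanci over Fancd2 was 0.916 to 1.21 in Model, inside the Control range of 0.362 to 1.46. Brca2 over Palb2 was 1.76 to 2.32 in Model and 0.711 to 1.66 in Control. In treated tumours the ratios of the first group were on the tumour side as well, with Eme1 over Mus81 at 0.808 to 1.08 in Taurine and 0.677 to 0.927 in Proline, and Mre11a over Nbn at 1.79 to 2.20 in Taurine and 1.42 to 2.13 in Proline.

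**Figure D3:**
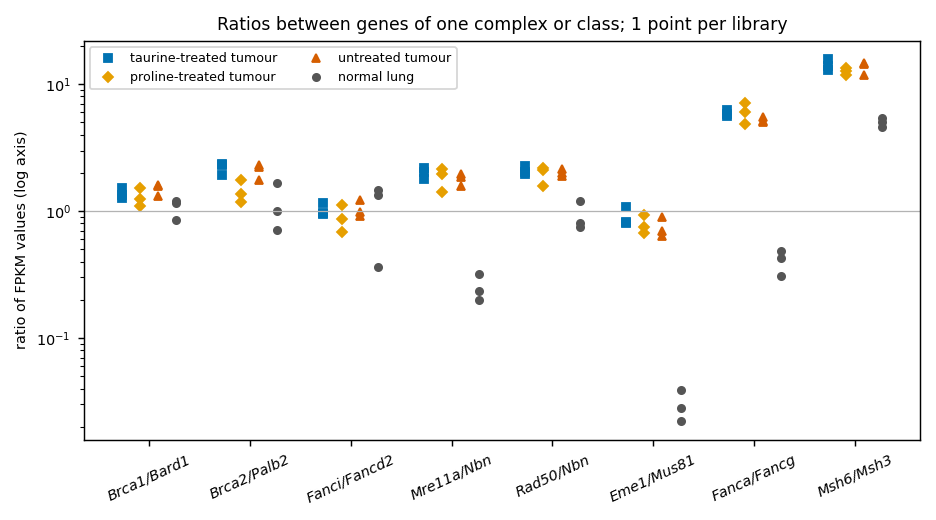
Ratio of FPKM values (log axis) between genes of 1 complex or class, 1 point per library, in taurine-treated, proline-treated and untreated tumours and in normal lung. Eme1/Mus81, Mre11a/Nbn and Fanca/Fancg separate every tumour library from normal lung, whereas the Fanci/Fancd2 points of untreated tumour, 0.916 to 1.21, lie within those of normal lung, 0.362 to 1.46.

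Position was a feature that the choice of genes did not use. By the positions in the deposited table, 16 of the 40 genes (40%) had a protein-coding gene starting head to head within 1000 bases, against 2203 of 18498 protein-coding genes (11.9%). Of these 16 neighbours, 6 were higher and 7 lower in Model, where 965 of 2159 tested genes in such pairs (44.7%) were higher. The following pairs were picked after their values were seen. Brca1 (3.74) stands beside Nbr1, an autophagy receptor at −0.63, and Apex1 (2.97) beside Osgep, a tRNA-modifying enzyme at −0.82. Pms2 (1.12) stands beside Aimp2 (2.05). Overlaps were frequent: 25 of the 40 genes overlap a gene on the other strand and 9 a gene on the same strand. The 9 are Atr, Bard1, Brca2, Exo1, Fancc, Fancl, Parp1, Pms2 and Rad54b. Since the sources used here do not give the strand setting of the counting, such counts carry that uncertainty. In the table's own KEGG annotation, 20 of the 40 genes are in the Fanconi anaemia pathway, 20 in homologous recombination, 4 in mismatch repair and 4 in base excision repair.

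Repair genes outside the 40 are given beside these values. Beside 32 higher and 1 lower of the 40 with a median log2 fold change of 1.71, 70 of 108 other repair genes were higher and 8 lower in Model with a median of 0.61, and 28.8% higher and 29.3% lower of all genes tested. Both lists were chosen with earlier results of these data known, and the difference between them was not tested. In recombination, 17 of 24 further genes were higher and none lower in edgeR's test, with Rpa1, a subunit of the single-strand binding protein, at 19.2 ± 1.27 FPKM in Model and 7.88 ± 0.486 FPKM in Control, and the helicase Rtel1 at 8.15 ± 0.456 and 2.59 ± 0.311 FPKM in Model and Control (SD, n = 3 each). Of 9 further Fanconi genes, 5 were higher and 1 lower: Ube2t, the enzyme that hands ubiquitin to the clamp, had a log2 fold change of 2.39, the ligase Rfwd3 1.27, and Faap20, a partner of FANCA, −0.41. In base excision, 12 of 19 were higher and 2 lower, with the ligase Lig1 at 2.68, the glycosylase Mpg at 2.15 and the polymerase Polb at −0.69. Of the 2 further mismatch genes, 1 passed, namely Pms1 at 2.08.

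Damage signalling had 9 of 15 genes higher and 1 lower, with the ATR activator Topbp1 at a log2 fold change of 2.42, the BRCA1-complex subunit Uimc1 at 1.77 and the checkpoint clamp gene Hus1 at −0.49. In end joining 9 of 13 were higher and 1 lower, with the Ku subunit Xrcc6 at 1.5, Rif1, which limits resection, at 0.93, and Paxx, a Ku-binding factor, at −1.61. Nucleotide excision repair had 10 of 17 higher and 3 lower, with Rad23b at 2.43 and Ddb1 at 1.94, both damage recognition factors, and with the damage sensor Xpc at −1.04 and its partner Cetn2 at −1.14. Of 9 translesion and reversal genes 7 were higher, led by the ubiquitin ligase Rad18, at 5.11 ± 0.626 FPKM in Model and 0.304 ± 0.0581 FPKM in Control (SD, n = 3 each; log2 fold change 3.94), and by the polymerase Rev1 at 2.08.

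**Figure D4:**
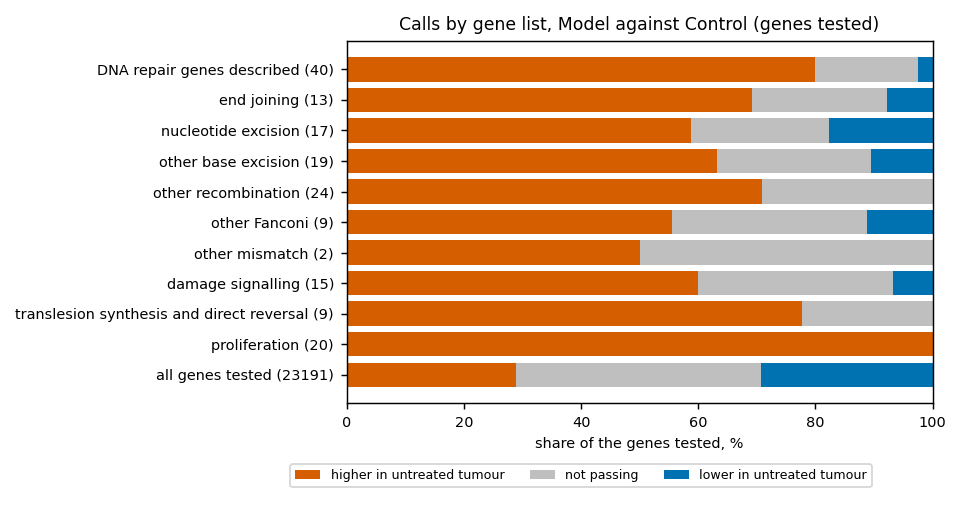
Share of tested genes (%) called higher, not passing or lower in untreated tumour against normal lung (edgeR, adjusted p of 0.05), for the 40 repair genes, 8 lists of other repair genes, a proliferation list and all genes tested, with the number of genes in brackets. The 40 genes have 32 higher, 7 not passing and 1 lower, beside 28.8% higher and 29.3% lower over all genes.

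Comparisons among tumours ask whether taurine or proline treatment moved these genes. In edgeR's test none of the 40 passed in Taurine against Model, in Proline against Model or between both treated groups (Taurine against Proline), and the smallest adjusted p was 0.707, 0.205 and 0.115 in this order. The share of all genes that passed was 0%, 0% and 0.0431%. At an unadjusted p under 0.05 there were 3, 4 and 3 of the 40, beside 6.79%, 13.4% and 14.4% of all genes tested. DESeq2 called 0, 1 and 2 of the 40, beside 0.424%, 3.65% and 5.16% of the genes it tested. Limma on log2(FPKM + 1) called none of the 40 in any of them, beside 0.00862%, 0.0129% and 0% of all genes. The median log2 fold change of the 40 was 0.09 in Taurine against Model, 0.09 in Proline against Model and −0.01 in Taurine against Proline. Any pair of these comparisons shares the libraries of a group, the first pair those of Model.

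The intervals show how large a difference these libraries could have missed. In Taurine against Model, 38 of the 40 genes had a 95% interval of the log2 fold change inside ±1, and Rad51b and Rad54b reached past it. In Proline against Model 37 did, all but Rad51c, Rad54b and Rad54l, and in Taurine against Proline 37 did, all but Rad51b, Rad51c and Rad54b. The fitted values themselves ran from −0.43 to 0.53 in Taurine against Model, from −0.42 to 0.93 in Proline against Model and from −0.47 to 0.47 in Taurine against Proline.

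Brca2 and Xrcc3, named for their small p, were lower in Proline than in the other tumours by the values, without passing in edgeR's test. Xrcc3 had 11.1, 12.3 and 10.6 FPKM in Taurine, 8.53, 8.46 and 7.81 FPKM in Proline, and 10.9, 11.6 and 10.1 FPKM in Model. All 3 Proline values lay under all 6 others. The log2 fold change of Xrcc3 was 0.47 in Taurine against Proline (95% interval 0.25 to 0.68, adjusted p = 0.115, edgeR) and −0.37 in Proline against Model (95% interval −0.58 to −0.15, adjusted p = 0.205, edgeR). DESeq2 called it in both, at an adjusted p of 0.00233 and 0.0396. The Proline libraries are in both comparisons, so these calls are not independent. Xrcc3 overlaps Klc1 on the other strand. Brca2 had 2.08, 2.22 and 1.97 FPKM in Taurine, 1.41, 1.65 and 1.51 FPKM in Proline, and 2.20, 2.01 and 1.77 FPKM in Model. Its Proline values were again the lowest 3 of the 9, with a log2 fold change of 0.47 in Taurine against Proline (95% interval 0.18 to 0.75, adjusted p = 0.159 in edgeR and 0.0182 in DESeq2). In Proline against Model it was −0.36 (95% interval −0.64 to −0.07, adjusted p = 0.277, edgeR).

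The remaining genes with the smallest p did not pass by any tool run. Msh6 had 22.2, 25.2 and 22.8 FPKM in Taurine, 19.3, 20.1 and 18.6 FPKM in Proline, and 22.3, 18.7 and 21.3 FPKM in Model. Taurine and Proline did not overlap for Msh6 (log2 fold change 0.29, 95% interval 0.09 to 0.48, adjusted p = 0.185, edgeR), while Taurine and Model did (0.21, adjusted p = 0.708). Mus81 had 3.04, 3.07 and 3.35 FPKM in Taurine, against 3.47, 4.90 and 4.75 FPKM in Model (log2 fold change −0.44, 95% interval −0.83 to −0.04, adjusted p = 0.707). Ung had 2.60, 2.52 and 1.95 FPKM in Taurine, against 1.68, 1.93 and 1.58 FPKM in Model, with Taurine 3 at the edge of the Model range (log2 fold change 0.48, adjusted p = 0.727). Rad54b had 0.694, 1.29 and 1.41 FPKM in Proline, against 0.465, 0.711 and 0.631 FPKM in Model, and Proline 1 fell within the Model range (log2 fold change 0.93, 95% interval 0.23 to 1.63, adjusted p = 0.262). Proline 2 and 3 also held more skeletal muscle transcripts, at 368.9 and 235.7 FPKM summed, than Proline 1 at 1.79 FPKM. In a fit without the libraries highest in muscle genes, the sign of the Rad54b change in Proline against Model stayed the same. A sign alone cannot tell whether muscle transcripts had a part in the Rad54b values, and that part was not tested.

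**Figure D5:**
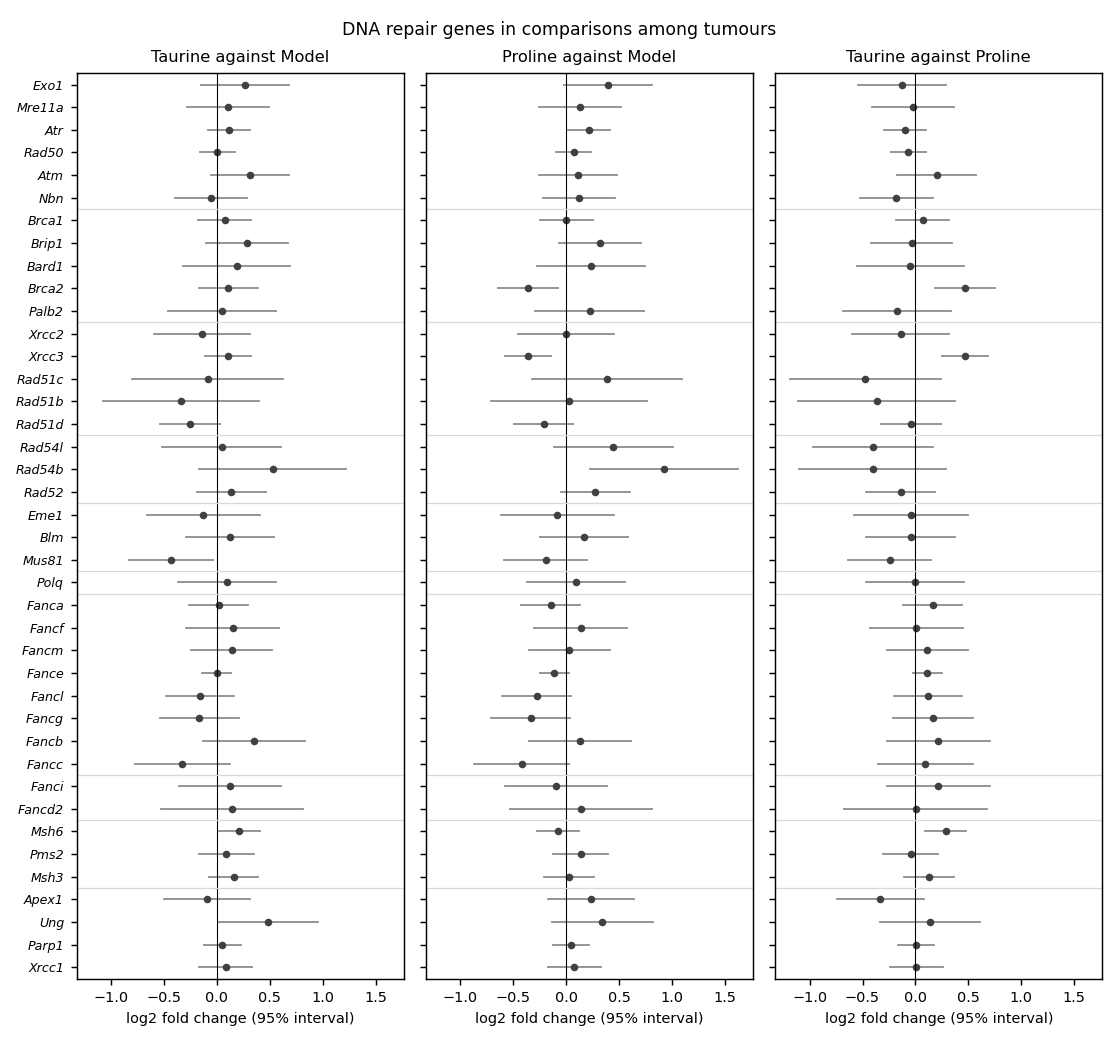
Log2 fold changes of the 40 genes with 95% intervals from edgeR, with a panel each for Taurine against Model, for Proline against Model and for Taurine against Proline, in the same order of genes and on 1 common scale. None passed an adjusted p of 0.05, the largest value is 0.93 for Rad54b in Proline against Model, and Xrcc3 and Brca2 lie at 0.47 in Taurine against Proline.

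Over the 9 tumour libraries the genes differed in how steady they were. The coefficient of variation (SD over mean) of the FPKM values had a median of 12.8% over the 40 genes, and 12 of them were under 10%. Rad50 varied least, at 3.46% with values from 7.73 to 8.53 FPKM, followed by Parp1 at 4.29%, from 21.6 to 24.5 FPKM, Fance at 4.94% and Brca1 at 5.11%. Rad54b varied most, at 36.1% with values from 0.465 to 1.41 FPKM, followed by Rad51c at 29.5%, Fancc at 23.4% and Rad51b at 23.3%. These genes of wide spread were at low levels, with tumour medians of 0.751 FPKM for Rad54b, 0.800 for Rad51c, 0.683 for Fancc and 0.532 for Rad51b. Polq, at a tumour median of 0.924 FPKM, nevertheless varied by 5.74%.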

How the data were processed

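RNA was prepared with a Qiagen column and libraries with a SMARTER mRNA kit, per the labels' protocols. The table that the authors deposited gives, for every gene, 12 columns of raw counts and 12 of FPKM, per the file headers. The submitters' processing notes name mm10, yet 3 of the 40 genes had the same start and end in a GRCm38 annotation, so no positions of the table are printed. The sources used here do not give the aligner, the counter or the strand setting.

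Counts were tested with edgeR 4.0.16 (quasi-likelihood, TMM scaling, filterByExpr, all 12 libraries in 1 fit, two-sided, Benjamini-Hochberg over 23191 genes; R 4.3.3). The deposited FPKM values served for levels and ratios. SE is the log2 fold change over the square root of F. The common biological coefficient of variation was 0.437. Alternatives were DESeq2 1.42.0, limma 3.58.1 on log2(FPKM + 1) and log2(FPKM + 0.1), other scalings, no filter, fits of only the compared groups, each library left out, and 3 sets of libraries with other tissues' transcripts left out, the last chosen after seeing the data. The fit was also run on simulated counts, with changes larger than those of the 40 genes among tumours. That run does not bear on changes as small as these.

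The 40 genes and the other lists were chosen with earlier results of these data known. Any of the 40 could be named. Among tumours the 3 with the smallest p were named, and of other lists up to 2 genes per direction with the smallest adjusted p.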

Additional observations from a re-analysis of the deposited data

How the results depend on the processing

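In Model against Control, the number of the 40 genes called was 33, against 31 to 34 over the libraries left out singly, 33 with DESeq2, 35 with limma on log2(FPKM + 1) and 34 on log2(FPKM + 0.1). The median log2 fold change of 1.71 ran from 1.62 to 1.86 with a library left out, the highest without Control 3, and was 0.85 with limma on log2(FPKM + 1), a scale on which the pseudocount shrinks the change of low genes. The call was lost for Xrcc1 and Rad51c and gained for Mus81, Atm and Rad51b under settings given with those genes, and the cause was not tested. Fancb changed sign to 0.226 without the Model libraries with liver transcripts, which left 1 Model library, assumed to vary like the other groups, and to 0.081 without the libraries highest in muscle genes, and ran from −0.319 to 0.092 with a library left out. Fancg changed sign to 0.092 without the libraries with kidney transcripts, 0.105 and 0.077 with limma on log2(FPKM + 0.1) and log2(FPKM + 1), 0.019 with no filter and 0.013 with upper-quartile scaling, and ran from −0.127 to 0.105 with a library left out. Of the other repair genes, 76 to 79 were called with a library left out, beside 78.

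Among tumours, edgeR called none of the 40 and none of the 108 others with any library left out. DESeq2 called 1 of the 40 in Proline against Model and 2 in Taurine against Proline, and of the others 1 in Taurine against Model, 3 in Proline against Model and 7 in Taurine against Proline. The medians of the 40 ran from 0.04 to 0.12 in Taurine against Model, from 0.04 to 0.13 in Proline against Model, and from −0.04 to 0.02 in Taurine against Proline with a library left out. The median in Taurine against Proline was −0.13 without the libraries with kidney transcripts, which left 1 Taurine library. No other scaling moved the median of all genes by more than 0.08.

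No paired analysis was possible because the labels link no libraries of different groups. With 3 libraries a group, the SE of the log2 fold change in Model against Control reached 0.34 in Rad51b, and Eme1 rests on 107 counts over the Control libraries. Counts of overlapping genes are uncertain, since the strand setting is not known here. Proliferation, cell makeup and tumour state cannot be told apart between Model and Control.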
